A study of Bos taurus with 30 samples.

Results

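Broad open domains of the bovine 8-cell embryo and morula were taken as stretches of at least 3000 bp made of overlapping peaks of the assay for transposase-accessible chromatin (ATAC-seq). For each of these stages, the peaks of its 3 control libraries were merged wherever they shared 1 bp, and a region was kept where peaks of 2 or more libraries met. The 8-cell and morula regions were then merged with each other, and those of 3000 bp or more are called members. Of 198014 merged regions, 1571 (0.793%) were members, and they held 5.42 Mb of the 169.7 Mb merged (3.20%). The members were chosen by the lengths of peaks in the 6 control libraries of 8-cell embryos and morula, so values of those libraries within members are given as a description, with no test. The measures were the percentage of bases covered by peaks, and the fold enrichment of a peak over its local background, which were followed through 10 conditions.

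The data were lists of broad peaks of 30 libraries, 3 for each condition, from cattle. Control material was germinal vesicle (GV) oocytes collected before maturation, embryos produced in vitro and collected as 2-cell embryos, 4-cell embryos, 8-cell embryos or morula, the inner cell mass (ICM) freed from blastocysts by immunosurgery, and embryonic stem cells (ESC) grown on mouse feeder cells. The transcription-blocked embryos (TBE) were 2-, 4- and 8-cell embryos cultured from the first day with 50 μg/ml of α-amanitin, which blocks elongation by RNA polymerase II, and all other groups went without it. Collection was 2 days after insemination for 4-cell embryos, 3 days for 8-cell embryos and 5 days for morula. The days were the same for 4- and 8-cell TBE. Each library pooled many oocytes, embryos or cells, so an open stretch of intermediate coverage may belong to a share of the cells, and small DNA fragments were selected before sequencing.

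The transposase cuts DNA where nucleosomes are sparse, so that peaks mark promoters, enhancers and other sites held open by transcription factors and remodelling enzymes. Stretches of open chromatin much longer than a single regulatory site are known from strongly transcribed genes, from clusters of enhancers and from repeated sequence. In cattle, the major wave of embryonic genome activation falls around the 8-cell stage, and the embryo compacts into a morula soon afterwards.

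Most members were little longer than the limit. Their median length was 3323 bp (quartiles 3136.5 and 3634 bp), 1023 of the 1571 were shorter than 3500 bp, 152 were of 4000 to under 5000 bp, and 14 reached 5000 bp. The other 196443 merged regions had a median of 681 bp. By the stage that supplied the length, 565 members held a region of at least 3000 bp at the 8-cell stage alone (8-cell-wide), 460 in morula alone (morula-wide) and 117 at both, while 429 reached the limit only when regions of both stages were joined. A single peak of 3000 bp or more was present in at least 1 of the 6 libraries in 734 members (46.7%), in at least 2 libraries in 232 (14.8%) and in all 6 in 4 members, and in none of them in 837 (53.3%). The term broad open domain therefore fits a minority of members in the sense of 1 unbroken peak seen in several libraries, and the 837 were neighbouring or staggered peaks joined across libraries.

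The limit cut through a continuous range of lengths. The members closest above it were chr26:14885855-14888854 and chr27:41430280-41433279, both of 3000 bp, and chr1:10230435-10233435, chr2:113202924-113205924 and chr10:100459391-100462391, of 3001 bp. Closest below it were chr3:43469992-43472990, chr6:84100495-84103493, chr16:50508013-50511011 and chr22:7206124-7209122, of 2999 bp, and chr2:233800-236797, of 2998 bp. The 292 members of 3000 to under 3100 bp were covered to 51.0% at the 8-cell stage, 52.5% in morula, 26.1% in ICM and 13.3% in GV oocytes, and the 354 regions of 2900 to under 3000 bp to 47.5%, 51.2%, 23.3% and 11.2%. In 2-cell embryos the shares were 1.41% above the limit and 0.796% below it.

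Within the 3 libraries of each rule stage, peaks covered 56.6%, 44.2% and 53.8% of the bases of members at the 8-cell stage, and 39.2%, 57.7% and 53.8% in morula. Other merged regions were covered to 41.2%, 35.6% and 44.4% at the 8-cell stage and to 40.7%, 61.1% and 55.0% in morula. The members stood above the other regions in each 8-cell library and slightly below them in each morula library. In the morula libraries the classes differed, with 31.5%, 41.4% and 40.3% in 8-cell-wide members and 48.2%, 76.2% and 70.0% in morula-wide members. These libraries chose the members, so no conclusion is drawn from the order. A member with any peak held on average 1.30, 1.36 and 1.38 peaks in the 8-cell libraries and 1.40, 1.38 and 1.42 in the morula libraries, and the median length of its longest peak was between 1151 and 1882 bp over the 6 libraries.

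In GV oocytes, peaks covered 14.6%, 11.9% and 13.9% of the bases of members in the 3 libraries. The 2-cell libraries covered 0.899%, 1.04% and 2.92%, and the 4-cell libraries 14.6%, 6.94% and 3.79%. All GV libraries lay above all 2-cell libraries, as did all 4-cell libraries, of which replicate 1 was as high as GV oocytes and replicate 3 close to the highest 2-cell library. The mean difference was 11.8 percentage points between GV oocytes and 2-cell embryos (13.5% ± 1.36 against 1.62% ± 1.13, SD, n = 3; exact two-sided permutation test, p = 0.1, adjusted p = 0.2) and 6.82 points between 4-cell (8.44% ± 5.56) and 2-cell embryos (exact permutation test, p = 0.1, adjusted p = 0.2). With 3 libraries against 3, 0.1 is the smallest p that these 20 arrangements can give, and the adjustment by the Benjamini-Hochberg method covered the 10 main tests. Not among the 10 were the splits by stage of the 2 TBE results pooled over stages, which were left unadjusted, and 6 comparisons between stages, a family of their own in which none passed. With 1 replicate number left out, the 4-cell minus 2-cell difference ran from 3.59 to 11.6 points. Depth differed between libraries. The background level, which is the pileup expected by chance and grows with the reads of a library, was 0.247, 0.248 and 0.507 in GV oocytes, at most 0.3, then 0.123 and 0.718 in 2-cell embryos, and 0.494, 0.453 and 0.223 in 4-cell embryos, and its part in these differences was not tested. With only the 925 peaks of highest −log10 p kept in every library, as many as the shortest list held, the GV minus 2-cell difference was -0.525 points and the 4-cell minus 2-cell difference -0.316 points. That setting keeps nearly the whole list of 2-cell replicate 1 and a small part of the GV lists, and the cause of the change was not tested.

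After the morula, members were covered to 23.7%, 21.2% and 30.3% in ICM and to 7.70%, 23.6% and 18.4% in ESC. ICM libraries spanned a narrower range and overlapped the ESC libraries, of which replicate 1 was the lowest. The means were 25.0% ± 4.69 and 16.6% ± 8.11 (SD, n = 3), with a difference of 8.47 points (exact permutation test, p = 0.2, adjusted p = 0.286), which ran from 5.69 to 14.9 points with 1 replicate number left out. Background levels were 0.493, 0.438 and 1.06 in ICM and 0.175, 0.656 and 0.404 in ESC, so the ESC library with the lowest coverage also had the lowest level. With 925 peaks in each list the difference was -0.0947 points.

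**Figure D1:**
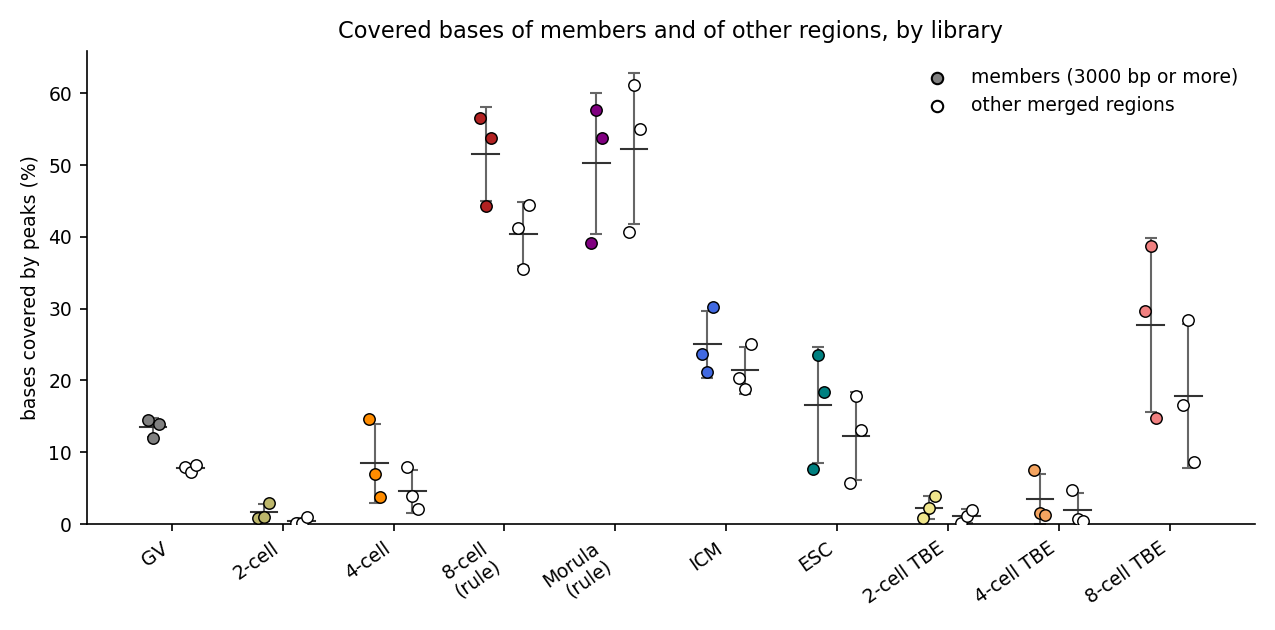
Percentage of bases covered by peaks in members (filled) and in other merged regions (open) for each of 30 libraries, with the mean (line) and SD (bar) of 3 libraries a condition; 8-cell and morula libraries chose the members. Members lie above other regions in each of the 24 libraries that did not choose them, and slightly below in the 3 morula libraries.

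Members were covered more densely than other merged regions in libraries that had no say in choosing them. The share was higher in members in 24 of 24 such libraries, by 1.13- to 5.61-fold with a median of 1.80-fold. Averaged over the 8 conditions, the difference was 3.90 percentage points (exact sign-flip permutation test over 8 condition means, p = 0.00781, the smallest that its arrangements allow, adjusted p = 0.0391). It was 0.457 points with 925 peaks in each list, 1.69 with domains from morula regions alone and 18.0 with the 14 domains of 5000 bp or more, 2 of which hold a peak in all 30 libraries. The 8 conditions measured the same regions, and TBE and control embryos came from shared collections, so the conditions are not independent. The p of the sign-flip test describes only their shared direction. The difference was widest in 8-cell TBE, at 9.87 points (SD 3.46, n = 3), followed by GV oocytes at 5.66 (SD 0.916), and was 1.17 (SD 0.667) in 2-cell embryos. In proportion, the ratios were 5.07 and 5.61 in 2-cell replicates 1 and 2 and 5.35 in 2-cell TBE replicate 1, where 18 members held 76.6%, 75.7% and 79.2% of the covered member bases, against 1.17, 1.13 and 1.21 in ICM. The difference held its direction when only the central 500 bp of each region was measured, an alternative chosen after seeing the data that gives every region the same window. Then 17.9%, 14.6% and 16.6% of the bases in the windows of members were covered in GV oocytes. In the windows of 121368 other regions of 500 bp or more, 9.36%, 8.46% and 9.57% of the bases were covered.

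Coverage outside the rule was graded by length in each of the 8 conditions. In GV oocytes the mean covered share was 5.43% for merged regions of 200 to under 1000 bp, 8.84% from there to under 2000 bp, 11.6% from there to under 3000 bp and 13.5% for members. In 8-cell TBE the same classes had 14.7%, 19.0%, 23.7% and 27.7%. The increase was flatter in ICM, at 20.0%, 21.8%, 24.4% and 25.0%, and in ESC, at 11.3%, 12.3%, 14.8% and 16.6%. In each of these 4 conditions the members continued a slope that shorter regions already showed. The classes had 3.21%, 5.18%, 6.89% and 8.44% in 4-cell embryos. They had 0.756%, 1.30%, 1.58% and 2.30% in 2-cell TBE, and 1.43%, 2.22%, 2.74% and 3.46% in 4-cell TBE. In 2-cell embryos the classes had 0.307%, 0.504%, 0.691% and 1.62%, the last with much of its coverage in 18 members described further down.

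Fold enrichment ran the other way. Weighted by the bases covered, the mean fold enrichment was lower in members than in other merged regions in 24 of 24 libraries outside the rule, and over the 8 conditions the difference was -0.632 (exact sign-flip permutation test, p = 0.00781, adjusted p = 0.0391). It was -1.46 with peaks of −log10 q of at least 3, -2.81 with 925 peaks in each list and -1.91 with the same 14 domains of 5000 bp or more. Here too the 8 condition means are not independent, and the p describes only their shared direction. In GV oocytes the values were 4.31, 4.14 and 3.92 in members and 4.77, 4.58 and 4.32 in other regions. In ICM they were 4.23, 4.12 and 4.05 against 4.80, 4.58 and 4.73. Peaks in members were thus more extensive, with a lower mean fold enrichment. The values are means over each peak, so the height at its summit was not measured. Without the 18 members that hold a peak in all 30 libraries, an alternative chosen after seeing the data, the difference over the 8 conditions was -0.473. Peaks of like length were also compared. Among peaks of 200 to under 500 bp, 23 libraries had at least 20 such peaks on each side. The median fold enrichment was lower in members than elsewhere in 22 of them. By the same count it was lower in 19 of 21 libraries for peaks of 500 to under 1000 bp. For 1000 to under 2000 bp it was 16 of 17, and from 2000 bp 13 of 14.

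Peaks of other conditions were mostly shorter than the domain around them. In members that held a peak, the median length of the longest one was 806, 668 and 783.5 bp in GV oocytes, 768, 549.5 and 399 bp in 4-cell embryos, 877, 772 and 1058 bp in ICM and 429.5, 1010 and 829.5 bp in ESC. In 8-cell TBE it was 1440, 1519 and 801 bp, in replicates 1 and 2 within the range of the 8-cell and morula libraries. In GV oocytes, 4-cell embryos, ICM, ESC and 8-cell TBE these peaks sat towards the middle. When each member was divided into 3 equal parts, the middle part was covered 1.34 times as densely as the outer parts in GV oocytes (SD 0.0523, n = 3, range 1.30 to 1.40) and 1.36 times in 4-cell embryos (SD 0.0268). The ratio was 1.17 (SD 0.0130) in ICM and 1.2 (SD 0.0139) in ESC, and neither range reached that of GV oocytes, while 8-cell TBE had 1.28 (SD 0.0889, range 1.18 to 1.35). In the libraries with few peaks the ratio reached below 1, with ranges of 0.998 to 1.21 in 2-cell embryos, 0.942 to 1.27 in 2-cell TBE and 0.974 to 1.42 in 4-cell TBE. At the 8-cell and morula stages, whose peaks set the edges of members, it was 1.14 and 1.11.

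**Figure D2:**
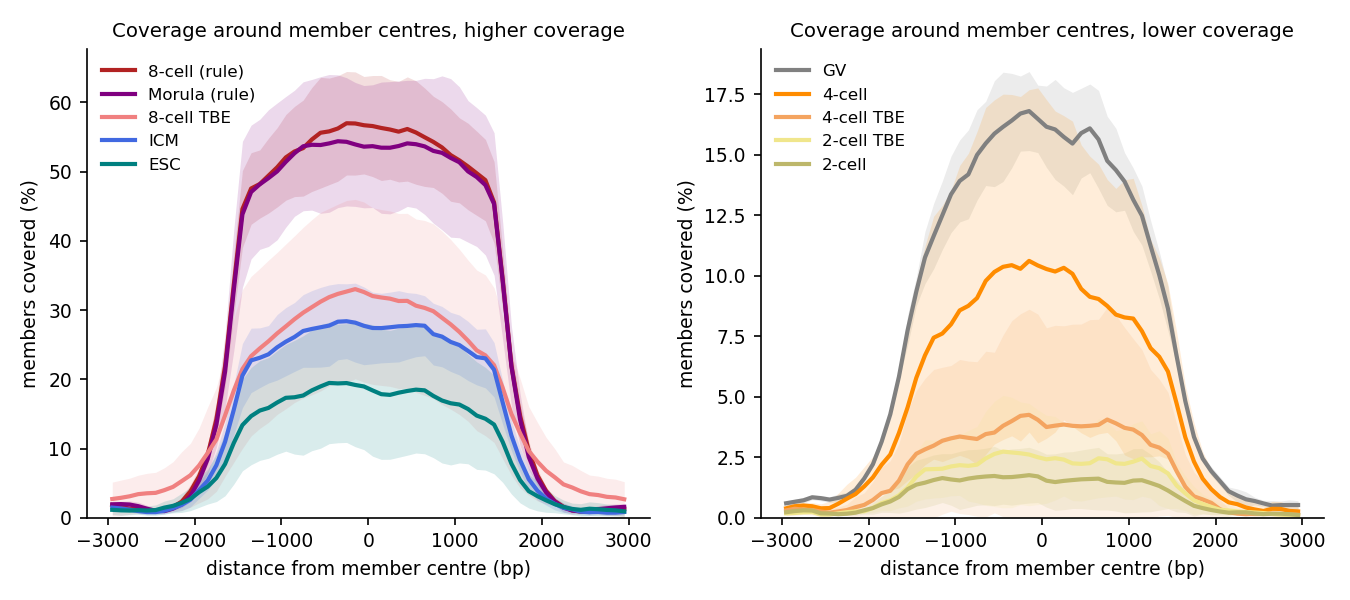
Percentage of members covered by peaks in 100 bp steps of distance from the member's centre, mean of 3 libraries with SD as a band; 8-cell and morula chose the members. Coverage in GV oocytes and 4-cell embryos narrows towards the centre, and the mean of 8-cell TBE is the highest at the far ends, which lie outside most members, and where replicate 2 (5.39% at -2950 bp) lies above replicates 1 and 3 (2.14% and 0.626%).

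Counted as occupied where peaks of at least 2 of 3 libraries touched them, 833 of the 1571 members were occupied in GV oocytes (53.0%), where 12.5% of all merged regions were. The 2-cell embryos occupied 38 members (2.42%, against 0.327% of all regions) and the 4-cell embryos 560 (35.6%, against 6.96%). In ICM 1225 members were occupied (78.0%, against 35.4%) and in ESC 973 (61.9%, against 22.3%). A longer region offers more bases for a peak to touch, so these shares are descriptions and do not replace the covered share. Most 4-cell regions in members shared a site with GV oocytes. The share of GV regions that met a 4-cell region was smaller, since a nearly equal shared count was set over a larger total. Of 561 regions of 4-cell embryos in members, 504 (89.8%) shared a base with a GV region, and of 874 GV regions in members, 506 (57.9%) shared one with a 4-cell region. In the other merged regions these shares were 81.4% and 44.2%, and the differences were not tested.

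Over the 2-cell and 4-cell embryos, the GV oocytes, ICM, ESC and 8-cell TBE, the most frequent pattern among members was occupation in all of these except 2-cell embryos, in 460 members (29.3%, against 4.70% of all merged regions). A further 214 (13.6%, against 3.10%) lacked 4-cell embryos as well. Not occupied means fewer than 2 of 3 libraries with a peak, and a member counted so may hold a peak of 1 library. In 2-cell embryos 1388 members had no peak in any of the 3 libraries. Another 195 (12.4%, against 14.7%) were occupied in ICM alone of these 6 conditions, 80 (5.09%, against 2.61%) in ICM, ESC and 8-cell TBE, 37 (2.36%, against 0.260%) in all 6, and 176 (11.2%, against 51.5%) in none. The share occupied in ICM alone was close to that of all regions. No peak of any of the 24 libraries outside the rule touched 48 members (3.06%, against 30.6%). The longest of those were chr2:64105069-64109142, chr12:74707540-74711497, chr4:77422471-77426390, chr17:25225865-25229755 and chr25:24595296-24599124. Among these 5, coverage ranged from 1.74% to 62.4% at the 8-cell stage and from 43.4% to 90.8% in morula.

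**Figure D3:**
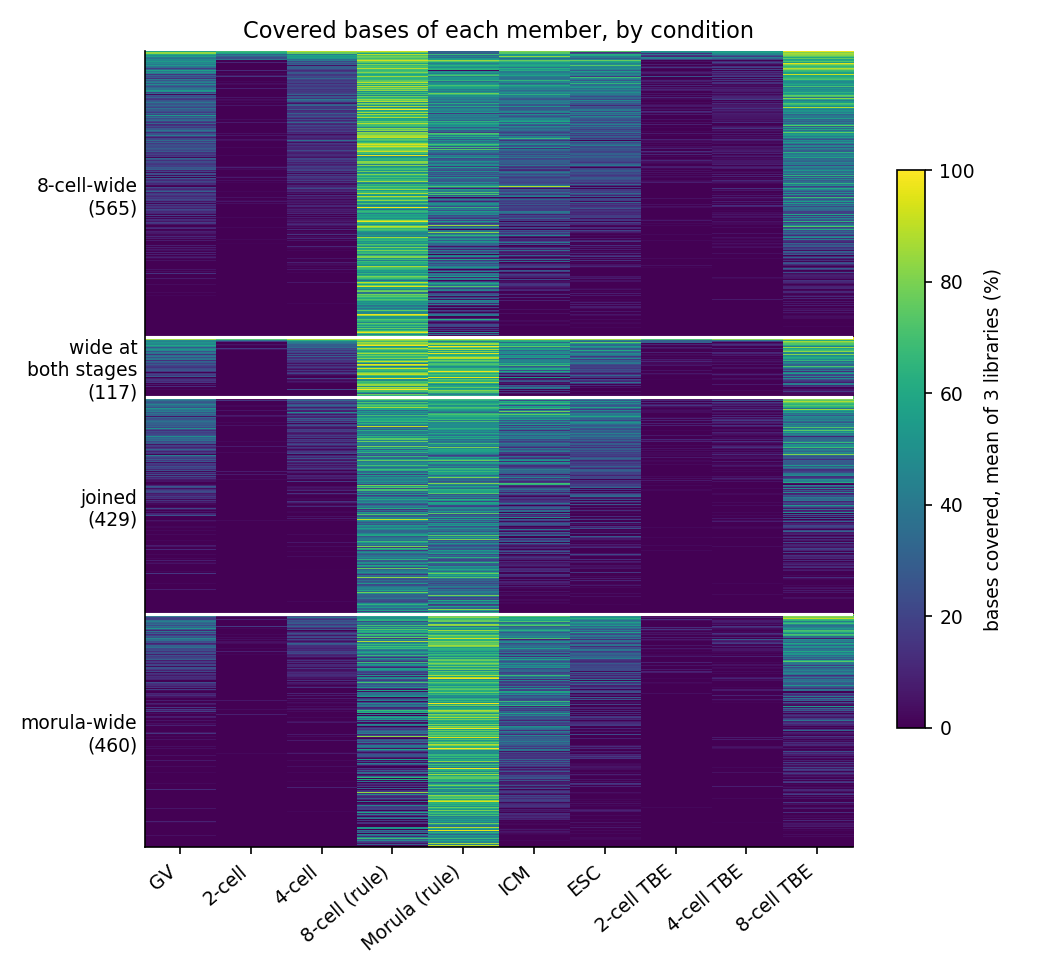
Percentage of bases covered in each of the 1571 members (rows, grouped by class and ordered by coverage in the 24 libraries outside the rule) in 10 conditions (columns), as the mean of 3 libraries. The 2-cell column is empty in most members, and 8-cell-wide members carry more colour in GV oocytes, 4-cell embryos and 8-cell TBE than morula-wide members.

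The classes of member differed in where else they were open. The 565 8-cell-wide members were covered to 17.1%, 14.5% and 17.1% in GV oocytes, and the 460 morula-wide members to 9.86%, 7.35% and 8.60%. In 8-cell TBE the 8-cell-wide members had 36.4%, 45.0% and 19.0% and the morula-wide members 20.2%, 30.4% and 9.35%. In ESC the values were 9.33%, 25.8% and 21.2% against 4.50%, 18.7% and 13.4%. Within each of these libraries the 8-cell-wide members were the more covered, as they were in 22 of the 24 libraries outside the rule. The exceptions were ICM libraries. Here the 8-cell-wide members had 22.8%, 20.9% and 29.5% and the morula-wide members 23.7%, 20.4% and 30.9%, a mean difference of -0.616 points (SD 0.997, n = 3), against 7.64 points (SD 0.790) in GV oocytes and 6.55 (SD 1.54) in ESC. The classes had like lengths, with medians of 3364 and 3332.5 bp, and they were split after values had been seen, so no test was made. Domains wide at both stages were the most covered of the 4 classes in each of the 8 conditions by their mean, with 25.9% (SD 2.64) in GV oocytes, 38.5% (SD 5.02) in ICM and 28.3% (SD 10.7) in ESC. The joined members fell between the 8-cell-wide and the morula-wide class in GV oocytes, at 11.2% (SD 0.961), and below both in ICM, at 22.0% (SD 4.06).

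**Figure D4:**
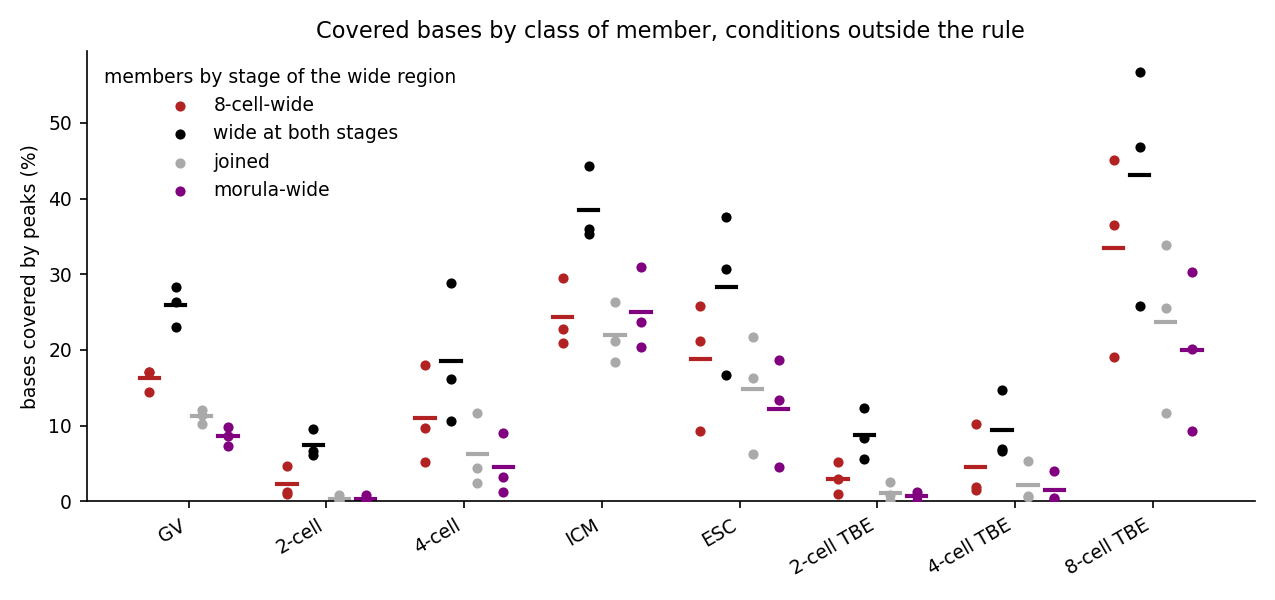
Percentage of bases covered by peaks in each library (points) and its mean (line) for members wide at the 8-cell stage, at both stages, by joining only, or in morula, in the 8 conditions that did not choose them. The 8-cell-wide points lie above the morula-wide points of the same library in GV oocytes, ESC and 8-cell TBE, and beside them in ICM.

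The TBE comparison asks how much of these domains is covered when embryonic transcription is blocked. In 2-cell TBE, peaks covered 0.833%, 2.17% and 3.91% of the bases of members, and in 2-cell control embryos the 0.899%, 1.04% and 2.92% given above. The groups overlapped, and the difference of 0.687 points was within their spread (2.30% ± 1.54 against 1.62% ± 1.13, SD, n = 3; exact permutation test, p = 0.7, adjusted p = 0.778). With 1 replicate number left out, this difference ran from 0.522 to 1.19 points. In 4-cell TBE the values were 7.50%, 1.57% and 1.32%, against 14.6%, 6.94% and 3.79% in control embryos. TBE replicate 1 was above 2 of the control libraries, while each TBE library was below the control library of the same number. Control and TBE embryos came from shared collections, but the labels do not tie single libraries to each other. The difference of -4.98 points did not pass the test (3.46% ± 3.50 against 8.44% ± 5.56, SD, n = 3; exact permutation test, p = 0.3, adjusted p = 0.375). The background levels were 0.324, 0.134 and 0.157 in 4-cell TBE, lower in sum than in 4-cell control embryos. Occupied members numbered 117 in 2-cell TBE (7.45%, against 1.63% of all regions), 159 in 4-cell TBE (10.1%, against 1.93%) and 1037 in 8-cell TBE (66.0%, against 23.2%).

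At the 8-cell stage the control libraries had chosen members, so the comparison was made in the 577 morula regions of 3000 bp or more, which no library of the 2-, 4- or 8-cell stages defined. They were covered to 26.1%, 36.2% and 13.1% in 8-cell TBE and to 44.0%, 34.8% and 42.6% in 8-cell control embryos. TBE replicate 2 lay above control replicate 2, and the other 2 TBE libraries below all controls. The means were 25.1% ± 11.6 and 40.5% ± 4.93 (SD, n = 3), with a difference of -15.3 points (exact permutation test, p = 0.2, adjusted p = 0.286). Background levels were 1.24, 3.82 and 0.347 in TBE and 1.31, 0.806 and 0.808 in control, so TBE replicate 2 was by far the deepest of these libraries and replicate 3 the shallowest. Without TBE replicate 2, an alternative chosen after seeing the data, the difference was -20.9 points (exact permutation test, p = 0.1, the smallest that 2 libraries against 3 allow). With the libraries of 1 replicate number left out at a time, it ran from -27.4 to -7.03 points. With 925 peaks a list, TBE minus control was 0.608 points, the opposite direction.

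Over the 3 stages together, morula-defined domains were covered less in TBE, with means of 10.3% against 16.7% and a difference of -6.34 points (exact permutation test within stages, 8000 arrangements, p = 0.0498, adjusted p = 0.166). By stage the differences were 0.603 points for 2-cell, -4.28 for 4-cell and -15.3 for 8-cell embryos, so the direction was not shared by all 3. The result failed the adjustment over 10 tests. Its raw p was also above 0.05 under several alternatives, among them autosomes alone (p = 0.0553, exact permutation test), and the difference ran from -10.5 to -4.39 points with 1 replicate number left out. Relative to other morula regions of the same library, no difference between TBE and control was detected. The log2 ratio of covered shares was 0.85 in TBE and 0.92 in control over the stages, a difference of -0.076 (exact permutation test within stages, p = 0.855). The stages went opposite ways, none with a passing test. At the 2-cell stage the ratio was 2.70, 0.70 and 0.51 in TBE and 2.68, 2.72 and 1.21 in control, a difference of -0.90. At the 8-cell stage it was 0.42, 0.19 and 0.31 in TBE and 0.27, 0.17 and 0.14 in control, and at the 4-cell stage 0.12, 1.11 and 1.58 in TBE and 0.45, 0.33 and 0.34 in control, differences of 0.11 and 0.56. A difference of the wide domains beyond that of narrower regions could therefore not be told from the spread between libraries.

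**Figure D5:**
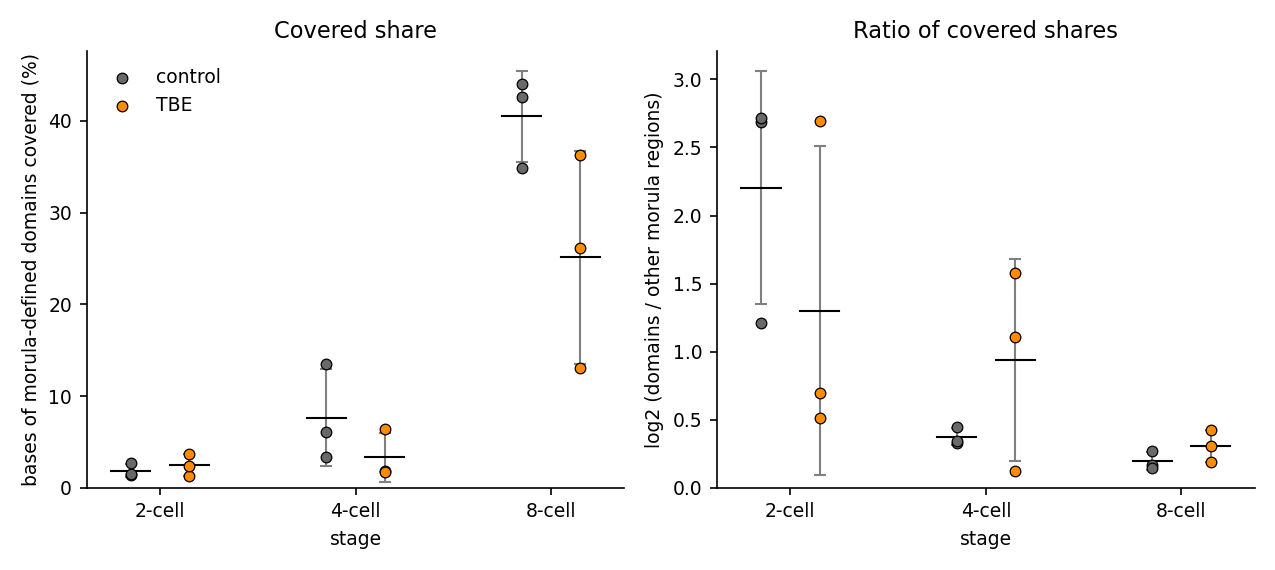
Percentage of bases of 577 morula-defined domains covered by peaks in control and TBE libraries at 3 stages (left), and log2 of that share over the share in other morula regions (right), with points for libraries, lines for means and bars for SD of 3 libraries. TBE and control points overlap at each stage in the left plot, and the ratios at the 2-cell stage spread most.

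Regions of 3000 bp or more were made in the same way from the other conditions and set beside the members. There were 27 in GV oocytes, 14 in 2-cell and 15 in 4-cell embryos, 111 in ICM, 85 in ESC, 8 in 2-cell TBE, 11 in 4-cell TBE and 2087 in 8-cell TBE. On members lay 14 of 14 at the 2-cell stage, 14 of 15 at the 4-cell stage, 8 of 8 in 2-cell TBE, 11 of 11 in 4-cell TBE and 16 of 27 in GV oocytes. The share was 59 of 111 in ICM, 31 of 85 in ESC and 215 of 2087 (10.3%) in 8-cell TBE, which is 13.7% of the members. Merged regions of any length were met by 26 of the 27 in GV oocytes, 111 of 111 in ICM, 83 of 85 in ESC and 1685 of 2087 (80.7%) in 8-cell TBE. Among the 59 members wide in ICM, 26 were morula-wide and 12 were 8-cell-wide. Among the 215 wide in 8-cell TBE, 38 were morula-wide and 100 were 8-cell-wide. Of all 1571 members, 460 were morula-wide and 565 were 8-cell-wide, and these differences were not tested. The many wide regions of 8-cell TBE rest mainly on replicate 2, with 1798 peaks of 3000 bp or more, against 339 and 9 in replicates 1 and 3. In all, 1320 members were wide in none of the 8 conditions outside the rule, 203 in 1 of them and 5 in all 8. Each of these 5 held a peak in all 30 libraries. No such count is given for the other merged regions, so these numbers are a description.

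A small set of members held a peak in every library of the series. Whether all of these peaks reflect open chromatin was not tested, as no sequence was assigned. Peaks of all 30 libraries touched 18 members (1.15%, against 0.0561% of all merged regions), 68238 bp in sum. They made up much of the signal where lists were short. Of all member bases covered in the 2-cell libraries, these 18 held 76.6%, 75.7% and 37.6%, and in the 2-cell TBE libraries 79.2%, 37.5% and 23.9%, against 6.39%, 7.69% and 7.55% in GV oocytes and 3.72%, 4.46% and 3.83% in ICM. The other members were covered to 0.213%, 0.255% and 1.85% in the 2-cell libraries. The 18 were picked by their peaks in these same lists, so a lower share without them follows from the choice. With these members left out and the other regions kept as they were, an alternative chosen after seeing the data, the difference over 8 conditions was 3.12 points (exact sign-flip permutation test, p = 0.00781).

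By the percentage of bases covered, averaged over the 24 libraries outside the rule, 5 members exceeded 95%, namely chr2:2087423-2090789 at 99.5%, chr10:5035297-5038687 at 99.1%, chr16:825812-829740 at 98.6%, chr3:90809102-90812149 at 97.9% and chr27:6219560-6225755 at 96.9%. The next were a domain on an unplaced scaffold at 83.0%, chr8:10293942-10297035 at 81.3%, chr28:514201-517208 at 75.5%, chr2:121566498-121572541 at 75.1% and chr13:343371-346851 at 72.1%. In the first 5, fold enrichment varied little over all 30 libraries. It ran from 2.79 to 3.77 in chr2:2087423-2090789, from 3.02 to 3.53 in chr10:5035297-5038687 and from 1.98 to 2.30 in chr16:825812-829740. In chr3:90809102-90812149 it ran from 3.90 to 4.52, and in chr27:6219560-6225755 from 1.71 to 2.13. High coverage in most libraries follows from how these 5 were chosen, and chr27:6219560-6225755 fell to 81.2% in 1 library.

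The longest member, chr27:6219560-6225755 (6196 bp), also held the longest peak of 29 of the 30 lists. The exception was 8-cell TBE replicate 2, whose longest peak was chr21:673211-680555 (7345 bp). The other members among the 10 longest had between 5326 and 6044 bp, and apart from chr2:121566498-121572541, named above, they held a peak in 9 to 29 of the 30 libraries. chr1:10786728-10792760 was covered to 49.8% ± 17 at the 8-cell stage, 73.4% ± 22.1 in morula, 6.39% ± 1.07 in ICM, 23.1% ± 14.3 in ESC and 14.0% ± 5.47 in GV oocytes (SD, n = 3). chr16:20598383-20603993 had 58.8% ± 6.90 at the 8-cell stage and 58.7% ± 29 in 8-cell TBE, but 1.19% ± 2.07 in GV oocytes and none in 2- and 4-cell embryos. chr4:27806697-27812154 had 72.1% ± 19.9 at the 8-cell stage, 52.9% ± 6.25 in 8-cell TBE, 1.71% ± 2.96 in GV oocytes, 3.53% ± 6.11 in 2-cell and 7.54% ± 13.1 in 4-cell embryos. By contrast, chr15:54684048-54689433 and chrX:77173056-77178408 held no peak in 8-cell TBE or ESC, and were covered to 41.3% ± 1.44 and 16.0% ± 14.1 in ICM. chr7:70818965-70824536 lay between these, with 31.8% ± 15.2 in ICM and 10.6% ± 18.4 in 8-cell TBE. The remaining long members were chr2:120949162-120954974, with 9.23% ± 9.21 in ICM, and chrX:84658731-84664056, with 39.8% ± 11.2.

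The chromosomes held members roughly in proportion to their merged regions. On the 29 autosomes there were 7.82 members for each 1000 merged regions, with a low of 4.55 on chromosome 22 and a high of 10.9 on chromosome 19, and on the X chromosome 7.15. Unplaced scaffolds had 35 members among 1121 regions, or 31.2 for each 1000. Coverage there was above that of the autosomes in 9 of 10 condition means and below it in morula (39.4% against 50.4%). The 35 scaffold members were covered to 6.83%, 10.6% and 43.9% in the 2-cell libraries, against 0.751%, 0.801% and 1.83% for the 1490 autosomal members. The means were 59.3% against 27% in 8-cell TBE, 42.5% against 24.9% in ICM and 27.8% against 16.5% in ESC. Shorter regions showed the same contrast in 2-cell embryos, with 14.2% (SD 8.58) on scaffolds and 0.363% (SD 0.413) on autosomes, so the contrast was not limited to wide domains. The 46 members on the X chromosome were covered to 11.1%, 17.3% and 21.1% in ICM and 4.70%, 16.1% and 8.11% in ESC, below the 23.8%, 20.9% and 29.9% and the 7.72%, 23.4% and 18.4% of autosomal members in the same libraries. In GV oocytes the X-linked members had 10.7%, 9.17% and 14.3% and the autosomal ones 14.3%, 11.4% and 13.1%, with replicate 3 in the opposite order. For shorter regions the X chromosome and the autosomes were closer, with 19.9% (SD 3.15) and 21.4% (SD 3.26) in ICM. The X-linked members were above the autosomal ones in the means of 6 of the 10 conditions, with 55.1% against 51.1% at the 8-cell stage and 53.0% against 50.4% in morula, where members were chosen. Outside the rule these were 2.30% on the X chromosome against 1.13% on autosomes in 2-cell embryos, 9.38% against 7.82% in 4-cell embryos, 2.98% against 1.98% in 2-cell TBE and 3.89% against 3.12% in 4-cell TBE. The 2-cell contrast rested mainly on replicate 3, as the X-linked members had 0.917%, 0.930% and 5.05% in the 3 libraries.

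Some members lay close together. Within 50 kb of another member were 191 of them (12.2%), in 85 pairs and 7 runs of 3. No such count was made for the other merged regions, so this share describes members and shows no clustering particular to them. The tightest run, chrX:84650003-84671995, packed 3 members into 21993 bp and included chrX:84668818-84671995, one of the 18 domains with a peak in all 30 libraries. The other runs of 3 on placed chromosomes were chr7:60816785-60854143, chr10:21885914-21943306, chr4:77422471-77485065, chr29:28964516-29035692 and chr10:26368478-26468943. All positions are on the ARS-UCD1.2 assembly, counted from 1. Genes, promoters and sequence were not assigned to the domains, since an annotation and a genome of that assembly were not used here.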

How the data were processed

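Reads were trimmed by the authors with Trim Galore and cutadapt (0.4.0), aligned to ARS-UCD1.2 with BWA (0.7.17) and filtered with SAMtools (1.7). Per the submitters' processing notes and the study's methods, broad peaks were called with MACS2 (2.1.1) at a q value of 0.05, here 1 list for each library. In the lists the authors deposited, each peak has a score, a fold enrichment over local background, which is a ratio, and −log10 p and q values, all as means over the peak. The members and lists were chosen with earlier results of these data known.

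Lists were read with Python (3.11.15), pandas (2.3.3) and numpy (2.4.6). Bases of a region covered by peaks were counted for each library, and fold enrichment was averaged with the covered bases as weights. The interval steps were tested on simulated lists. The lists give no read totals, so a background level was solved from peaks of at most 260 bp whose fold enrichment and −log10 p matched a whole-number pileup within 0.0001, with scipy (1.17.1), as the lowest level shared by at least 3 peaks. In 2-cell replicate 1 and 2-cell TBE replicate 1 it is an upper limit. Differences were tested over libraries with exact two-sided permutation tests, within stages for TBE. Members and other regions were compared by sign flips over condition means. The 3 libraries of a condition came from separate oocyte collections for oocytes and embryos, and for ESC p-values measure the spread between libraries only. Alternatives were stricter peaks, other region rules and lengths, equal list sizes, and leaving out replicates. The regions named were the 10 longest members, the 10 most covered outside the rule, the 5 longest without a peak there and the 5 on either side of 3000 bp. Figures were drawn with matplotlib (3.10.9).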

Additional observations from a re-analysis of the deposited data

How the results depend on the processing

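The covered share of members over other regions and their lower fold enrichment kept direction and threshold under all 17 and all 15 alternatives run for them (p at most 0.0156 and 0.00781, exact permutation tests). Tests of 3 against 3 cannot pass 0.05, so their p-values say nothing of stability. With 925 peaks in every list, directions turned for TBE minus control over 3 stages (0.157), in 2-cell members (-0.258) and in 8-cell morula-defined domains (0.608), for GV minus 2-cell (-0.525), 4-cell minus 2-cell (-0.316) and ICM minus ESC (-0.0947), and for the log2 ratio (0.43); the cause was not tested. The log2 ratio also turned with −log10 q of at least 3 (0.092) and with domains of 5000 bp or more (0.35), and ran from -0.21 to 0.093 with replicates left out. The TBE difference over 3 stages lost its raw p on autosomes (-6.22), at 2000 bp (-5.77), at 5000 bp (-5.09) and as the share of domains touched (-12.5). It also did so without domains that hold a peak in all 30 libraries (-6.40, chosen after seeing the data) and with replicates left out (-10.5 to -4.39). Its p ran from 0.0188 to 0.287 over 15 alternatives (exact permutation tests), and was 0.0233 without 8-cell TBE replicate 2, chosen after seeing the data. With the replicate block the difference was -6.34 (exact sign-flip permutation test, p = 0.0898), and no other call changed; deviations of same-numbered libraries correlated above 0.1 in 5 of 9 pairs and those of other numbers in 3 of 18, and not every library correlated best with its own number; since not all 9 were above 0.1, numbers were not taken to pair them. The number of members was 1039 with −log10 q of at least 3, 11340 at 2000 bp, 14 at 5000 bp, 577 from morula and 682 from the 8-cell stage alone, and 987 to 1085 without a replicate. A member without a called peak may be open below detection.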

Other observations

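Of 1483 ICM regions in members, 949 (64.0%) shared a base with an ESC region, and of 1078 ESC regions 944 (87.6%) shared one with an ICM region. In the other merged regions the shares were 44.4% and 69.7%, and the differences were not tested. Of 874 GV regions in members, 797 (91.2%) shared a base with an ICM region, against 80.7% in other regions. Of 561 regions of 4-cell embryos in members, 554 (98.8%) shared a base with one of 8-cell TBE, and of 1127 regions of 8-cell TBE, 543 (48.2%) shared one with a 4-cell region, against 96.4% and 27.5% in other merged regions.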
